A study of Mus musculus with 32 samples.

Results

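The granins and the enzymes of prohormone processing are described here over the cells of the mouse median eminence (ME), for the 10 genes Chga, Chgb, Scg2, Scg3, Scg5, Vgf, Pcsk1, Pcsk2, Pcsk1n and Cpe. They were chosen by symbol, as 10 of the 27998 genes counted, and all 10 were detected. Granins are acidic proteins that are stored with peptide hormones in dense-core vesicles, the regulated secretory granules of neurons and endocrine cells. In these vesicles the convertases PC1/3 (Pcsk1) and PC2 (Pcsk2) cut prohormones at pairs of basic residues, carboxypeptidase E (Cpe) trims the exposed basic residues, proSAAS (Pcsk1n) inhibits PC1/3, and 7B2 (Scg5) is the chaperone of PC2. The ME is where hypothalamic axons release peptides into the portal blood of the pituitary, and the pars tuberalis (PT) is the part of the pituitary that wraps around it.

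The ME of 10 male C57B/L6 mice, aged 40 to 47 days, was measured by droplet-based single-cell RNA sequencing with unique molecular identifiers (UMIs), which count each captured transcript once from its 3′ end. Of these mice, 5 were fasted overnight (16 h) and 5 were refed normal chow for 1 h after the same fast, so fasting was shared by both groups. The tissue of each group was pooled and its sorted live cells were split over 2 libraries, so a library is a part of a pool and not an animal. Cell barcodes carry a number from 1 to 4 that could not be tied to a library or a diet, so the 5982 cells of both diets were treated as a single sample. The refed cells were not compared with the fasted cells, and no test was run.

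The 4 barcode numbers held 1359 to 1642 cells with a median of 3518 to 4057 UMIs per cell, and 21 barcode sequences occurred under 2 numbers. Cells were clustered without the 10 genes and without the other peptide and vesicle genes described below, and 21 of 25 clusters were named for 13 cell types from their markers. The neuron-like class held 556 cells (9.29%), the PT-like class 60 cells (1.00%), and the glia-like class 3944 cells (65.9%), which are the astrocyte-, tanycyte-, microglia- and oligodendrocyte-lineage cells together (OPC, differentiating OPC and mature oligodendrocyte, MOL). Neuron-like cells were the deepest, with a median of 12822 UMIs, against 3087 in microglia-like cells. Levels are CPM, the UMIs of a gene per 1000000 UMIs of the cell class. Intervals are at the 95% level, exact Poisson for levels and ratios and exact Clopper-Pearson for shares, and cover counting error only.

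The genes lie on 8 chromosomes of GRCm38 and are annotated as protein coding. Chga (ENSMUSG00000021194) spans chr12:102554969-102565028, Chgb (ENSMUSG00000027350) chr2:132781278-132795079 and Scg2 (ENSMUSG00000050711) chr1:79434669-79440120. Scg3 (ENSMUSG00000032181) spans chr9:75643189-75684056, Scg5 (ENSMUSG00000023236) chr2:113776362-113829121 and Vgf (ENSMUSG00000037428) chr5:137026392-137033351. Pcsk1 (ENSMUSG00000021587) spans chr13:75089826-75134861, Pcsk2 (ENSMUSG00000027419) chr2:143546156-143816285, Pcsk1n (ENSMUSG00000039278) chrX:7919822-7924410 and Cpe (ENSMUSG00000037852) chr8:64592542-64693054.

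Promoter windows of 300 bases (250 before and 50 after the RefSeq start, GRCm38.p6) were matched for 8 of the 10 genes. The cAMP response element TGACGTCA, which reads the same on both strands and is a known binding motif of CREB-family factors, was found in 3 of these windows (Chgb, Scg2 and Pcsk1) and in 1.79% of all 32851 windows. Its variant TGACGTAA (reverse TTACGTCA) was found in the window of Chga and in 0.499% of all windows. The shorter motif TGACG (reverse CGTCA), which is contained in both longer motifs, was found in 7 of the 8 windows and in 20.8% of all windows. The 4 genes with a longer motif are shown on the strand of the gene, 5′ to 3′, with the motif in capitals, because Chga, Chgb and Scg2 carry the highest levels of the PT-like class below and Pcsk1 is the convertase found with them.
Chga: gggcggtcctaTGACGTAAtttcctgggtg
Chgb: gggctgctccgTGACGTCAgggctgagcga
Scg2: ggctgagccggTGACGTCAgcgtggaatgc
Pcsk1: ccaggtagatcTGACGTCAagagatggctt
The motif begins 44 bases before the RefSeq start in Chga (chr12:102554886-102554915, plus strand), 72 bases in Chgb (chr2:132781559-132781588, plus strand), 68 bases in Scg2 (chr1:79440076-79440105, minus strand) and 78 bases in Pcsk1 (chr13:75089768-75089797, plus strand). In the GENCODE annotation the stretches of Chga and Pcsk1 lie upstream of the gene, and those of Chgb and Scg2 lie in an exon of a transcript that starts further upstream. A match of letters is a description and not evidence of binding.

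Over the 13 cell types the 10 genes did not follow 1 pattern. Chga, Chgb, Scg2 and Scg5 were highest in PT-like cells, Vgf and Pcsk1n in neuron-like cells, Scg3 in astrocyte-like cells, Cpe in tanycyte- and astrocyte-like cells, and Pcsk2 in ependymocyte-like cells. Pcsk1 was highest in PT-like and then in neuron-like cells, whose counting intervals overlapped (26.9 to 69.9 CPM and 19.8 to 27.2 CPM). The ratio of these 2 levels was 1.92 (1.13 to 3.10), from 19 and 158 UMIs. PT-like cells were higher at all 4 barcode numbers, though the ranges overlapped (28.8 to 66.5 and 16.1 to 35.0 CPM). Summed, the 10 genes made up 4.64% of the UMIs of PT-like cells, 0.881% of those of neuron-like cells, 0.250% of those of glia-like cells and 0.0421% of those of microglia-like cells alone.

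**Figure D1:**
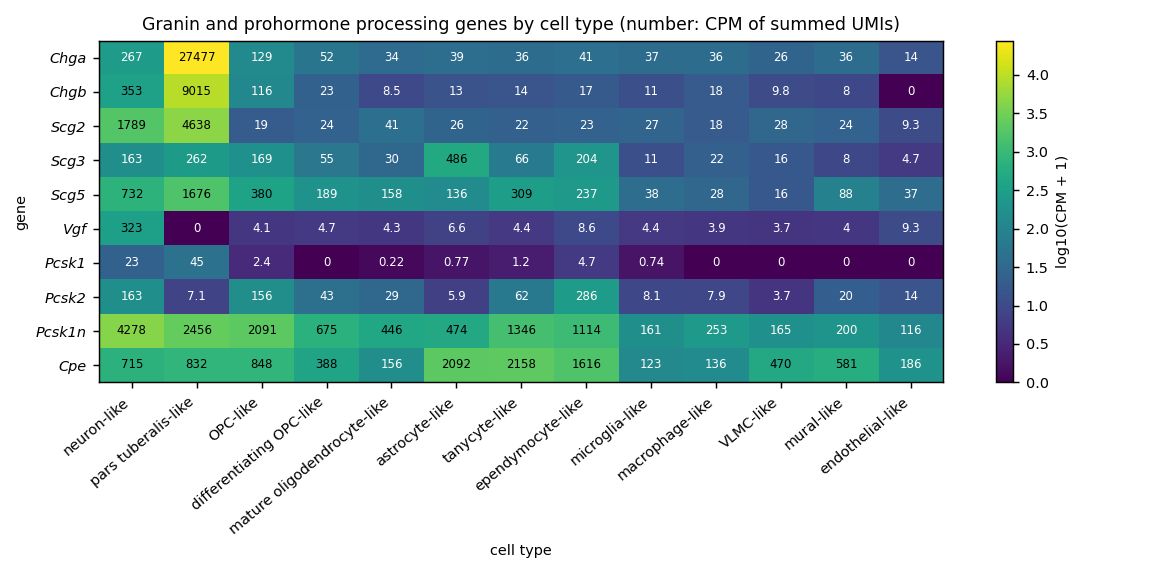
Level of each of the 10 genes (rows) in the 13 named cell types (columns), with the colour giving log10(CPM + 1) and the number giving the CPM of the summed UMIs. The PT-like column holds the highest values for Chga (27477 CPM), Chgb, Scg2 and Scg5, and the highest values for Scg3 (486 CPM in astrocyte-like cells) and Cpe (2158 CPM in tanycyte-like cells) are in glia.

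The first comparison asked which of the genes set neurons apart from glia. Scg2, Vgf, Chgb, Chga and Pcsk1n were at least 4-fold higher in neuron-like than in glia-like cells on the log2(CPM + 10) scale, that is 5 of the 10 genes, where 2.97% of the 13146 genes with at least 50 UMIs were called, and 0 were 4-fold lower (3.42% of genes). Pcsk2, Scg5 and Pcsk1 were higher by less than 4-fold on that scale, Scg3 was level, and Cpe was lower in neurons. The median log2 difference of the 10 genes was 2.08, against -0.01 for all genes tested.

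Vgf, the precursor of several secreted neuropeptides, was found mainly in neurons. Its neuronal level was 362, 243, 380 and 281 CPM at barcode numbers 1 to 4, and 2.13 to 10.1 CPM in microglia-like cells. These ranges did not overlap, and neuron-like cells held 95.1% of all its UMIs. The level was 65.9 times that of glia-like cells (interval 52.8 to 83.3). It was uneven among neurons, since 55.2% of them had a UMI of Vgf and a single cell held up to 89.

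Scg2, the precursor of secretoneurin, was the more broadly used granin of neurons. Its level was 1983, 2113, 1674 and 1608 CPM in neuron-like cells at barcode numbers 1 to 4 and 14.9 to 54.7 CPM in microglia-like cells. At 2000 UMIs per cell, 82.7% of neuron-like cells had a UMI against 5.52% of the microglia, in which the gene should be absent. The other glial types lay near that background. In MOL-like cells a single cell carried 86 of the 184 Scg2 UMIs, which raised barcode number 1 to 89.9 CPM against 11.6 to 31.3 CPM at the others.

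Chgb, a granin of dense-core vesicles, was at 353 CPM in neuron-like cells (303 to 426 over the barcode numbers) and at 20.1 CPM in glia-like cells, a ratio of 17.5 (15.6 to 19.7). Chga, the founding granin, was at 267 CPM (230 to 297) and 44.5 CPM, a ratio of 6.01 (5.51 to 6.55). Pcsk1n, which encodes proSAAS, was at 4278 CPM (3784 to 4812) and 802 CPM, a ratio of 5.33 (5.22 to 5.44). For each of these genes the 4 neuronal values lay above the 4 glial values.

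The convertases were scarcer. Pcsk2 was at 163 CPM in neuron-like cells and 40.9 CPM in glia-like cells, a ratio of 3.98 (3.62 to 4.39) and a difference of 1.76 on the log2(CPM + 10) scale of the call. This ratio depends on which cells count as glia. The glia-like class leaves out the ependymocyte-like cells (286 CPM) and the unnamed clusters described below, in which Pcsk2 was higher than in neurons. Pcsk1 was at 23.3 CPM and 0.787 CPM, from 158 and 13 UMIs, a ratio of 29.6 (16.8 to 56.8) that the added 10 CPM brings down to 1.63 log2 units. Without barcode number 1 the glial level of Pcsk1 was 0.512 CPM and the neuronal level 23.7 CPM. Scg5 was at 732 CPM and 201 CPM, a ratio of 3.64 (3.48 to 3.80). Scg3, a granin that binds Chga, was at 163 and 158 CPM, and Cpe was at 715 and 1201 CPM, a ratio of 0.596 (0.577 to 0.615).

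The next comparison placed the endocrine PT-like cells against glia and neurons. Chga, Chgb, Scg2 and Scg5 were at least 4-fold higher in PT-like than in glia-like cells, that is 4 of the 10 genes (9 had enough UMIs), where 1.38% of 12303 genes were called, and 0 were 4-fold lower (3.58% of genes). The same 4 were at least 2-fold higher in PT-like than in neuron-like cells, where 5.48% of 10036 genes were called. Vgf and Pcsk2 were at least 2-fold lower, where 15.9% of genes were called. The median log2 difference of the genes with enough UMIs was 1.60 against glia and 0.69 against neurons, beside -0.14 and -0.22 for all genes tested. Pcsk1 had too few UMIs to be called against glia (19 and 13), at 44.8 against 0.787 CPM, a ratio of 56.9 (26.6 to 125).

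Chga was the most abundant of the genes in PT-like cells, at 28695, 22334, 23183 and 33724 CPM over barcode numbers 1 to 4. The neuronal values (230 to 297 CPM) lay far below, with a ratio of 103 (97.8 to 108). The 60 PT-like cells held 81.0% of all Chga UMIs and 57.7% of all Chgb UMIs. Chgb was at 9466, 14379, 6086 and 7515 CPM, 25.6 times the neuronal level (24.3 to 26.9).

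Scg2 was at 4005, 3831, 4341 and 6316 CPM in PT-like cells, 2.59 times the neuronal level (2.47 to 2.72). Scg5 was at 1774, 1596, 1227 and 2043 CPM, 2.29 times the neuronal level (2.11 to 2.48). When CPM was averaged over cells instead of summed, Scg2 and Scg5 no longer passed 2-fold and the count fell to 2 genes.

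Vgf had no UMI in PT-like cells, and the counting interval of its ratio to neurons reached up to 0.0269. For a count of 0 a floor of 3 UMIs was also taken, which is 45.7-fold below the neuron-like level and 7.07 CPM in PT-like cells. Pcsk2 had 3 UMIs in these cells (7.07 CPM), a ratio of 0.0434 to neurons with a counting interval of 0.00894 to 0.127. Of these UMIs 2 came from 1 cell of barcode number 3, without which the level of Pcsk2 was 3.13 CPM. Pcsk1 had 19 UMIs (44.8 CPM). Of the UMIs of both convertases together, Pcsk1 thus made up 86.4% in PT-like cells (65.1 to 97.1%) and 12.5% in neuron-like cells (10.7 to 14.5%), 2 intervals that do not overlap. Pcsk1n (2456 CPM, ratio 0.574) and Cpe (832 CPM, ratio 1.16) differed from neurons by less than 2-fold.

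The PT-like class was not uniform. Of its 60 cells, 35 carried 39 to 990 UMIs of Cga, the common alpha subunit of the glycoprotein hormones, and 25 carried 0 to 3. Cga, a marker used to name the class, was therefore at or near 0 in 25 of its cells. It was left out of the clustering, and which genes joined these cells was not tested. Of the other naming markers, Pitx1 had a UMI in 15 of the 25 cells, and Tshb and Eya3 had 0 UMIs. The split by Cga was made after the values had been seen, and the values of both sets are given as a description.

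**Figure D2:**
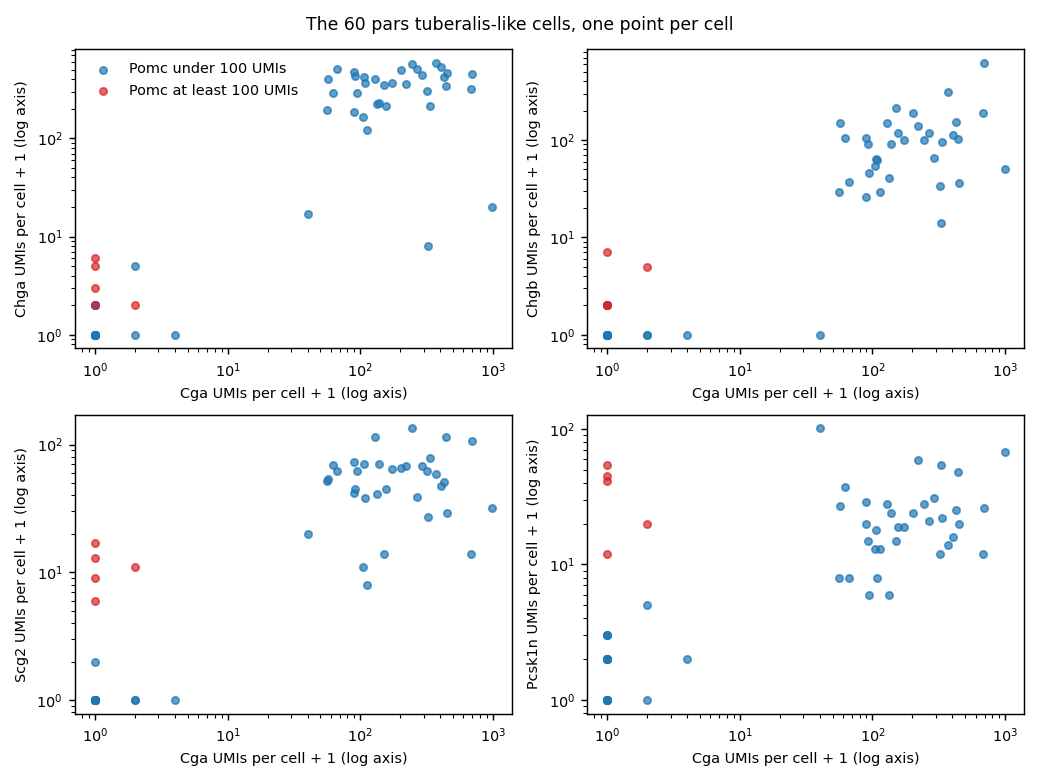
UMIs of Cga (x axis) against UMIs of Chga, Chgb, Scg2 and Pcsk1n (y axes), both plus 1 on log axes, with a point for each of the 60 PT-like cells. The 35 cells with Cga lie to the right and mostly above 100 Chga UMIs, and the 5 cells with at least 100 Pomc UMIs (red) lie at the left with few Chga UMIs but 11 to 53 Pcsk1n UMIs.

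In the 35 cells with Cga, Chga ran from 7 to 585 UMIs per cell with a median of 358, and 32 of them had at least 100. Chgb ran from 0 to 617 UMIs (median 95) and Scg2 from 7 to 133 UMIs (median 53), so Scg2 was present in every one of these cells. The 10 genes together took 6.51% of the UMIs of these 35 cells and up to 10.3% of those of a single cell. Among the other pituitary hormone genes Gh and Prl were at 0 and Lhb had 73 UMIs, in 16 cells. Over the 35 cells alone, Scg3 (343 CPM) and Pcsk1 (64.0 CPM) also passed 2-fold over neurons, which made 6 genes.

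The 25 cells with little or no Cga held few granins, with a median of 0 UMIs for Chga, Chgb and Scg2. In 5 of them Pomc, the precursor of corticotropin and melanocyte-stimulating hormone, stood at 107 to 899 UMIs per cell, and all 5 had Scg2 (5 to 16 UMIs) and Pcsk1n (11 to 53 UMIs) but at most 5 UMIs of Chga. The other 20 cells had 0 to 4 UMIs of Chga and of Pcsk1n, and 16 of them carried the keratin gene Krt18, as did 10 of the 35 cells with Cga. Chga was detected in 75.0% of the 60 cells and in all 35 with Cga.

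Low counts of Cga were found in every class. The level of Cga was 18.7 CPM in neurons, 19.9 CPM in microglia and 15.5 CPM in OPC-like cells, and it was detected in 6.44% of the microglia-like cells. The UMIs of Chga per UMI of Cga were 1.36 in PT-like cells (1.32 to 1.39), 1.85 in microglia-like cells (1.14 to 3.08) and 1.59 in astrocyte-like cells (1.22 to 2.07). They were 14.3 in neuron-like cells (11.9 to 17.2) and 8.37 in OPC-like cells (5.19 to 14.3). For Chgb the same ratio was 0.445 in PT-like, 0.556 in microglia-like, 0.515 in astrocyte-like and 0.535 in MOL-like cells, against 18.8 in neuron-like and 7.47 in OPC-like cells. Differentiating OPC-like, ependymocyte-like and tanycyte-like cells stood between, at 1.21 (0.679 to 2.17), 1.05 (0.550 to 2.00) and 0.690 (0.485 to 0.976) for Chgb, above the PT-like interval (0.428 to 0.462). For Chga the intervals of differentiating OPC-like (2.79, 1.73 to 4.65), ependymocyte-like (2.52, 1.497 to 4.405) and MOL-like cells (2.15, 1.62 to 2.90) also lay above that of PT-like cells. The source of these counts was not tested. The ratios of neuron- and OPC-like cells lay above the intervals of PT- and microglia-like cells for both granins. For both granins the intervals of all the other types overlapped that of microglia-like cells.

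**Figure D3:**
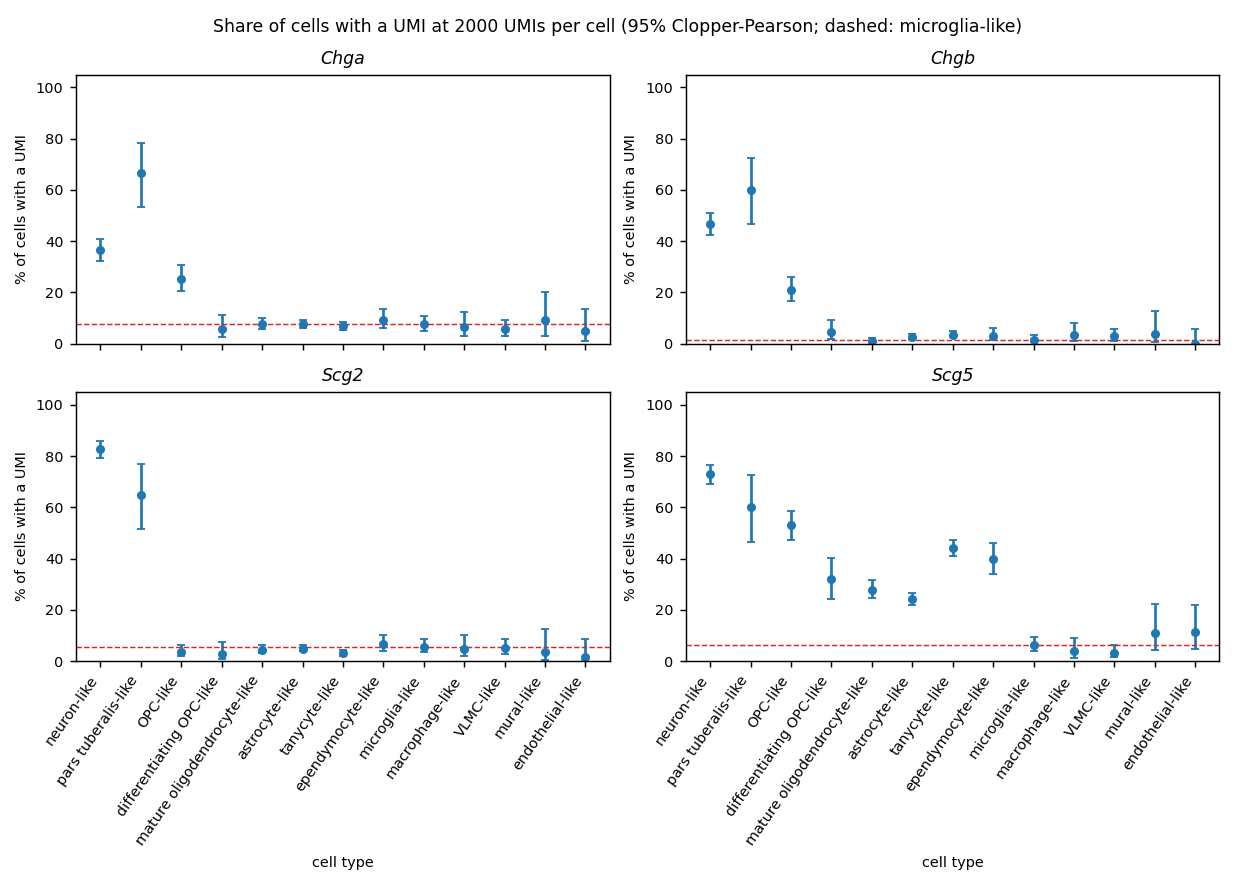
Share of cells with a UMI of Chga, Chgb, Scg2 and Scg5 (y axes, percent) in the 13 cell types after thinning every cell to 2000 UMIs, with 95% Clopper-Pearson intervals and the microglia-like share as a dashed line. OPC-like cells stand above the line for Chga (25.2%), Chgb and Scg5 and not for Scg2 (3.64%).

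Glia were then described type by type against microglia-like cells, which served as the background (a comparison added after the data had been seen). OPC-like cells had 6 of the 10 genes at least 4-fold higher (8 had enough UMIs), where 11.8% of genes were called. Ependymocyte-like cells had 5 (7 had enough UMIs, 13.9% of genes called), tanycyte-like cells 3 (8 had enough UMIs, 6.78%), astrocyte-like cells 2 (7 had enough UMIs, 7.59%) and differentiating OPC-like cells 2 (7 had enough UMIs, 9.88%). In MOL-like cells 0 passed, of the 8 with enough UMIs (6.78% of genes called). In each of these types 0 of the genes were 4-fold lower, where 7.42% (OPC), 8.22% (ependymocyte), 5.98% (tanycyte), 7.0% (astrocyte), 9.22% (differentiating OPC) and 8.55% (MOL) of all genes were called. Scg2 passed 4-fold in none of these types, and Vgf and Pcsk1 had too few UMIs in each.

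OPC-like cells, the dividing precursors of oligodendrocytes, carried the widest set among glia. Pcsk1n was at 1991, 2101, 2181 and 2164 CPM over the barcode numbers, against 126 to 219 CPM in microglia-like cells. Pcsk2 was at 156 CPM (133 to 181), within the range of neuron-like cells (150 to 209), and the counting intervals of these classes overlapped. Chgb was at 116 CPM (107 to 125) against 5.06 to 14.9 CPM in microglia-like cells, and 20.9% of OPC-like cells had a UMI at 2000 UMIs per cell against 1.38%. Chga was at 129 CPM (108 to 161), 3.51 times microglia-like cells (2.54 to 4.93), and 25.2% had a UMI at that depth against 7.46%.

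Along the oligodendrocyte lineage most of the genes ran from higher to lower. Pcsk1n was at 2091 CPM in OPC-like, 675 CPM in differentiating OPC-like and 446 CPM in MOL-like cells. Pcsk2 was at 156, 42.9 and 29.0 CPM, Scg5 at 380, 189 and 158 CPM, and Cpe at 848, 388 and 156 CPM in the same order. Scg3 was at 169, 55.4 and 29.7 CPM and Chgb at 116, 22.6 and 8.54 CPM. Chga was at 129, 52.3 and 34.4 CPM, where microglia-like cells were at 36.8 CPM. Scg2 did not (18.7, 24.2 and 41.4 CPM, with 86 of the MOL-like UMIs in 1 cell), and Vgf was at 4.07, 4.69 and 4.27 CPM. In all 4 barcode numbers, Pcsk1n and Cpe were higher in OPC-like than in MOL-like cells.

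Astrocyte-like cells were the main source of Scg3. Its level was 490, 500, 490 and 464 CPM over the barcode numbers, against 152 to 172 CPM in neuron-like and 2.13 to 23.4 CPM in microglia-like cells. The ranges do not overlap, and astrocyte-like cells held 43.7% of all Scg3 UMIs. At 2000 UMIs per cell 57.1% of them had a UMI of Scg3, against 27.5% of neuron-like and 2.21% of microglia-like cells. The convertases were low in these cells, with Pcsk2 at 5.87 CPM and Pcsk1 at 0.766 CPM, from 23 and 3 UMIs.

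Cpe was shared by the astroglial and ventricular cells. It was at 2158 CPM in tanycyte-like cells (1954 to 2590), the hypothalamic glia that line the floor of the third ventricle, and at 2092 CPM in astrocyte-like cells (1930 to 2347). These neighbours in the order do not differ beyond their spread. Ependymocyte-like cells, the ciliated cells of the ventricle wall, followed at 1616 CPM (1406 to 1749), then OPC-like cells at 848 CPM and PT-like cells at 832 CPM. The highest levels of Cpe were in 2 clusters that took no name, at 2629 CPM (188 cells led by Dynlrb2, Cited1 and Dio3) and 2627 CPM (360 cells led by Dynlrb2, Mlc1, Mia and Gfap). Microglia-like cells were at 123 CPM.

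Pcsk2 was highest in ependymocyte-like cells among the named types, at 262, 289, 262 and 316 CPM over the barcode numbers. The neuron-like values were 160, 209, 150 and 154 CPM, so the ranges do not overlap. The same 2 unnamed clusters were at 302 and 282 CPM, while tanycyte-like cells were at 62.0 CPM and microglia-like cells at 8.10 CPM. At 2000 UMIs per cell 36.4% of ependymocyte-like cells had a UMI of Pcsk2, against 1.66% of microglia-like cells. Scg5, whose product 7B2 accompanies PC2, was at 237 CPM in ependymocyte-like, 309 CPM in tanycyte-like and 37.6 CPM in microglia-like cells.

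**Figure D4:**
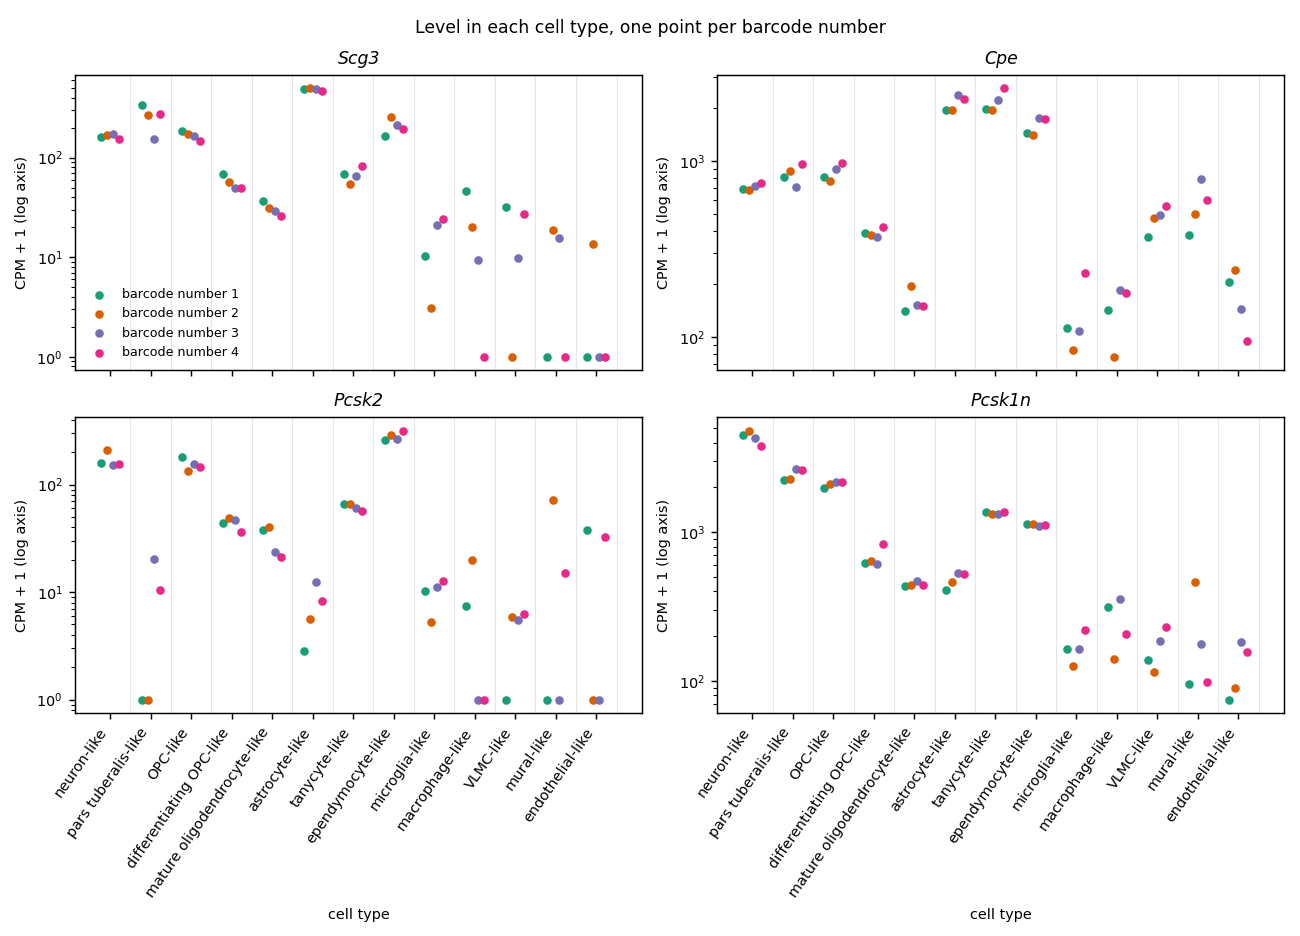
Level (CPM + 1, log axis) of Scg3, Cpe, Pcsk2 and Pcsk1n in the 13 cell types, with a point for each of the 4 barcode numbers. For Scg3 the 4 astrocyte-like points (464 to 500 CPM) lie above all other types, and for Pcsk2 the 4 ependymocyte-like points (262 to 316 CPM) do.

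The last comparison was among neurons. The 556 neuron-like cells were clustered again without the 10 genes and without the peptide genes, and the 11 clusters of at least 20 cells are called by their leading gene. Scg3, Scg5, Pcsk1n, Cpe and Chgb varied by 1.94 to 2.69 times between the highest and lowest of these clusters, Chga by 6.06 times, Scg2 by 10.4 times, Pcsk2 by 18.5 times and Vgf by 23.0 times. Pcsk1 was at 0 in 1 cluster. The order of the clusters differed from gene to gene, though the Cck-led and Vip-led clusters ranked above all others for Chga, Scg2, Pcsk2 and Cpe.

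Pcsk1 was highest in the Tac2-led cluster (57 cells), at 79.1 CPM (59.9 to 102), and next in the Npy-led cluster (60 cells, with Agrp) at 42.4 CPM (30.9 to 56.7). These 2 clusters held 36.1% and 28.5% of the neuronal Pcsk1 UMIs. The 4 barcode numbers gave 43.6, 36.1, 111 and 133 CPM in the Tac2-led cluster and 47.8, 55.5, 25.1 and 56.0 CPM in the Npy-led cluster, so the order of these 2 does not hold in each of them. The Cck-led cluster (36 cells) had no Pcsk1 UMI at any barcode number.

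Pcsk2 had another order. It was highest in the Cck-led cluster at 464 CPM (380 to 561) and the Vip-led cluster (53 cells, with Prok2 and Avp) at 428 CPM (366 to 497), and it was lowest in the Ghrh-led cluster (33 cells, with Gal) at 25.1 CPM (12.5 to 44.9). The Tac2-led cluster was at 59.6 CPM (43.2 to 80.3), with 67.4, 64.9, 63.3 and 44.2 CPM over the barcode numbers. Pcsk1 made up 57.0% of the UMIs of both convertases in the Tac2-led cluster (46.7 to 66.9%), 27.1% in the Npy-led cluster (20.5 to 34.5%), 3.43% in the Vip-led cluster (1.27 to 7.31%) and 3.41% in the Sst-led cluster (1.26 to 7.27%). The share in the Tac2-led cluster was not stable over the barcode numbers. Pcsk1 was below Pcsk2 there at numbers 1 and 2 (43.6 and 36.1 CPM) and above it at 3 and 4 (111 and 133 CPM).

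**Figure D5:**
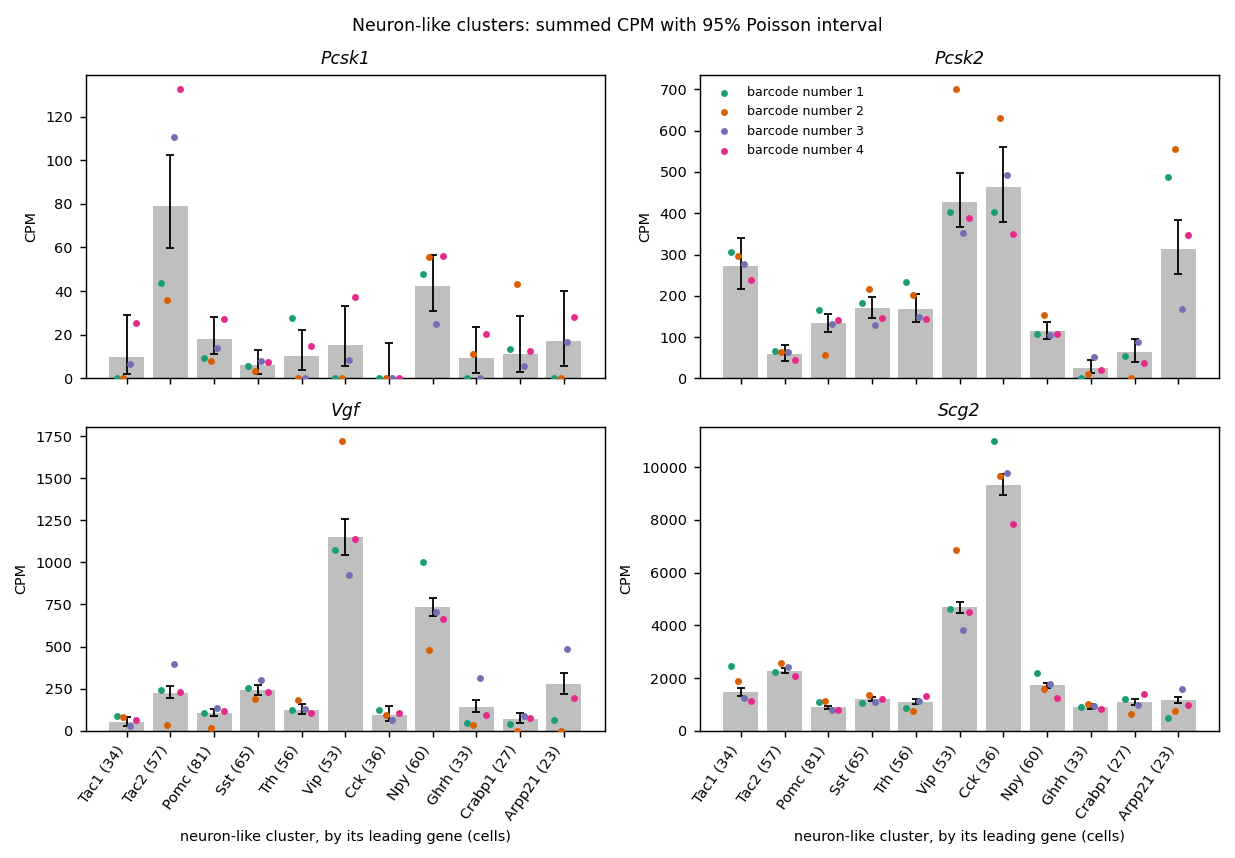
Level of Pcsk1, Pcsk2, Vgf and Scg2 (CPM) in the 11 neuron-like clusters, as bars of the summed CPM with 95% Poisson intervals and a point for each barcode number. The Tac2-led cluster is highest for Pcsk1 (79.1 CPM) and among the lowest for Pcsk2, while the Vip-led cluster is highest for Vgf (1149 CPM) and the Cck-led cluster for Scg2 (9337 CPM).

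Vgf was highest in the Vip-led cluster, at 1074, 1719, 923 and 1140 CPM over the barcode numbers, and next in the Npy-led cluster, at 1004, 481, 708 and 664 CPM. The 2 clusters held 20.7% and 35.5% of the neuronal Vgf UMIs. The Tac1-led cluster (34 cells) was lowest, with 15 UMIs in all. A cluster of 19 cells led by Ppp1r17, too small for the rule, stood at 934 CPM, from 74.2, 102, 1810 and 526 CPM over the barcode numbers. Its next leading genes were Ccnd2, Cdkn1a, Egr2, Srxn1 and Atf3.

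Scg2 was highest in the Cck-led cluster, at 10984, 9679, 9790 and 7833 CPM, above the level of the whole PT-like class. The PT-like cells with Cga alone were at 6164, 4762, 5900 and 8593 CPM, a range that overlaps that of the Cck-led cluster. Next among the neuron-like clusters was the Vip-led cluster at 4678 CPM (4467 to 4896). The lowest was the Pomc-led cluster (81 cells, with Avp) at 899 CPM. This cluster was mixed, with Avp at 5553 CPM and Pomc at 990 CPM. Chga was also highest in the Vip-led cluster, at 840 CPM (752 to 935), followed by the Cck-led cluster at 477 CPM. Pcsk1n was highest in the Npy-led cluster at 5947 CPM (5801 to 6096) and was at 2864 CPM in the Vip-led cluster.

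Neurons were also grouped by the peptide they made, and these groups share many cells with the clusters. The peptide took at least 0.2% of the UMIs of the cell in 69 neurons for Agrp, 67 for Npy, 59 for Sst, 46 for Tac2, 41 for Avp, 31 for Gal and 27 for Cartpt. Tac2 neurons, which make neurokinin B, had Pcsk1 at 84.2 CPM (62.3 to 111) and Pcsk2 at 67.0 CPM (47.7 to 91.6). Sst neurons, which make somatostatin, had Pcsk1 at 9.78 CPM (4.22 to 19.3) and Pcsk2 at 293 CPM (257 to 333). Avp neurons, which make vasopressin, had Scg2 at 6870 CPM, Vgf at 1111 CPM and Pcsk2 at 521 CPM. The same share of Avp was also reached in 4 microglia-like cells, so it does not by itself mark a cell that makes the peptide. Agrp neurons, which drive feeding, had Vgf at 683 CPM and Pcsk1n at 5762 CPM.

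Lists of related genes were counted in the same way. Of the 35 dense-core vesicle genes 33 had enough UMIs, and 13 were at least 4-fold higher in neuron-like than in glia-like cells and 0 lower, where 2.97% and 3.42% of all genes were called. The largest differences on the log2 scale were those of Resp18 (5.14), a vesicle protein of endocrine cells, the SNARE protein gene Snap25 (4.83), the synaptotagmins Syt4 (4.52) and Syt5 (4.08), the vesicle GTPases Rab3c (3.72), Rab3a (3.36) and Rab3b (3.08), and the granule membrane gene Ptprn (2.57). In PT-like against glia-like cells 9 of the 26 tested were higher and 0 lower (1.38% and 3.58% of all genes), led by Resp18 (6.53), Rab3b (4.94) and Syt4 (4.06). Against neurons, 3 of the 31 tested were at least 2-fold higher in PT-like cells and 10 lower (5.48% and 15.9% of all genes), with a median log2 difference of -0.42. The lower genes included Syt5, Rab3a, Rab3c and Cadps (-2.88, -2.86, -2.60 and -2.29).

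Of the 19 other enzymes of prohormone processing, 16 had enough UMIs. At a share of 2.97% over all genes, 0 were at least 4-fold higher in neuron-like than in glia-like cells, and 1, the lysosomal cathepsin gene Ctsh, was lower (7.82 against 104 CPM). In PT-like against glia-like cells 0 of 16 were higher (1.38% of all genes) and Ctsh was again lower. Against neurons 1 of 12 was at least 2-fold higher in PT-like cells (Ece1, 1.44) and 2 were lower (Qpct, -1.87, and Pam, -1.47). Counts this small are near the shares over all genes. The median log2 difference of the list was -0.18 between neurons and glia, against -0.01 for all genes. Of the 33 peptide precursor genes in the matrix 25 had enough UMIs, of which 16 were at least 4-fold higher in neuron-like than in glia-like cells (2.97% of all genes). In PT-like against glia-like cells 6 of 16 were higher (1.38%), and against neurons 4 of 24 were at least 2-fold higher (5.48%) and 18 lower (15.9%). The higher genes of both PT comparisons include Cga and Tshb, which were also markers used to name the PT-like class. Their place among the higher genes was thus fixed by the naming, and these counts are not independent of it.

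The likeness of profiles was described over the 13 named types by Pearson correlation of log2(CPM + 10), among 12671 genes, with no test since the types share libraries. Chga and Chgb were most like each other among the 10 genes (r = 0.98), and Chga and Pcsk2 were least alike (r = -0.03). The genes nearest to Chga were Cck, Egr4 and Chgb, those nearest to Chgb were Chga, Cgn and Tmem145, and those nearest to Scg2 were Isl1, Prokr2 and Rprml. Nearest to Pcsk1 were Sytl4, Resp18 and Prokr2, and nearest to Vgf were Prok2, Nhlh2 and Agrp. Nearest to Scg5 was Pcsk1n (r = 0.93), followed by Ccdc92 and Ankrd6, and Ccdc92 and Coprs were among the nearest to Pcsk1n. Nearest to Pcsk2 were Gnal, Ctxn1 and Shank2, to Scg3 Kcnk1, Limk2 and Tprkb, and to Cpe Msi1, Rcn2 and Spaca6.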

How the data were processed

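Per the labels, ME cells were encapsulated with 10x Genomics 3′ reagents, and the authors counted UMIs with Cell Ranger 2.0 on GRCm38 (mm10). The deposited values are raw UMI counts of 5982 cells in 1 matrix, all whole numbers. The gene annotation release is not given in the sources used here. Of 32 sample records, 16 are of fasted and 16 of refed mice, and they are lanes of 4 libraries that the matrix does not tie to cells. Of the 27998 gene IDs, 27645 were matched to symbols.

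Cells were scaled to the median total, log-transformed and clustered (2000 variable genes, 30 principal components, 15 neighbours, Leiden resolution 1, scanpy 1.11.5). The 10 genes and the listed genes were left out of the variable genes. Clusters were named by a marker score of at least 0.3 that was at least 1.5 times the next list, with at least 3 markers 4 times above the median cluster, and otherwise left unnamed. Markers of other pituitary cells were used as a check and not for names. Scrublet called 50 cells (0.836%) as doublets, which were kept, and 3 cells with much haemoglobin were set apart. No cell was removed for depth. UMIs were summed per type, and folds were taken on log2(CPM + 10) over genes with at least 50 UMIs in both groups together. Shares were also computed after thinning to 1000 or 2000 UMIs (304 cells below 2000 were left out). UMIs of 1 cell are not independent, and pooled mice give no replicate error. The fold and thinning steps were tested on simulated data.

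Named are the 10 genes, at most 8 genes per list and comparison with the largest difference past 4-fold, the peptide genes that define a neuron group of at least 20 cells, and the 3 most similar genes, of which 1 is not reported here. Genes that lead a cluster, Cga, Pomc, Krt18, Lhb, Gh, Prl, Pitx1, Tshb and Eya3 were named outside this rule after their values were seen. Kiss1 was not matched. The members and lists were chosen with earlier results of these data known. Alternatives were other cluster settings, doublets and shallow cells left out, thinning, means over cells, other pseudocounts, equal weights of glial types and each barcode number left out. The comparison of refed with fasted cells was not made.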

Additional observations from a re-analysis of the deposited data

How the results depend on the processing

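The count of genes at least 2-fold higher in PT-like than in neuron-like cells fell from 4 to 2 (Chga and Chgb) when CPM was averaged over cells, and was 6 over the PT-like cells with Cga, an alternative chosen after seeing the data. When cells were thinned to 1000 UMIs it stayed 4, with Pcsk1 in place of Scg2. The count higher in neuron-like than in glia-like cells was 5, with 6 at Leiden resolution 2, after thinning and for means over cells (Pcsk2 added), 6 with a pseudocount of 1 CPM (Pcsk1 added), 4 with a pseudocount of 50 CPM (Chga lost) and 7 with K-means clusters (Scg5 and Pcsk2 added), where only astrocyte- and MOL-like clusters stood for glia. With K-means no cluster was PT-like (Cga was among the leading genes of an unnamed cluster of 1942 cells), so the PT comparisons gave no value. Without each barcode number in turn, the counts were 5 to 5 for neurons against glia, 4 to 4 for PT against glia, and 4 to 4 higher and 2 to 2 lower for PT against neurons. Leaving out the Vip-led neuron-like cluster, also chosen after seeing the data, left 5. Of the 450 log2 differences of single genes under the alternatives, 328 were classed as the same as in the main setting and 122 as moved. None of the called ones turned its direction. Of 350 levels, 268 were classed as the same and 82 as moved, and 9 changed by more than 1.5 times, 5 of them with K-means. No paired analysis was possible because the barcode numbers in the matrix were not tied to the replicate numbers in the labels and no test was run. Depth limits Pcsk1 most, with 203 UMIs in all cells.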

Other observations

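In OPC-like against microglia-like cells, 1 of 8 tested genes of the list of other processing enzymes was at least 4-fold higher and 3 lower, and 3 of 12 dense-core vesicle genes were higher and 1 lower, where 11.8% and 7.42% of all genes were called. In tanycyte-like cells 1 of 13 enzymes was higher and 2 lower (6.78% and 5.98% of all genes). Qpct, which encodes glutaminyl cyclase, an enzyme that modifies the first residue of peptides, was at 849 CPM in OPC-like cells, 199 CPM in differentiating OPC-like cells and 88.6 CPM in the mature oligodendrocytes. Neurons were at 139 CPM and microglia at 11.8 CPM. In OPC-like cells Ptprn (161 CPM) and Snap25 (137 CPM) were also more than 4-fold above microglia-like cells (14.7 and 11.8 CPM). Pam, which amidates peptides, was at 239 CPM in tanycyte-like cells, 312 CPM in neurons and 16.9 CPM in microglia. The lysosomal cathepsin genes Ctsb and Ctsh were at 2449 and 1065 CPM in microglia, against 456 and 7.82 CPM in neurons.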
